A study of Mus musculus with 21 samples.

Results

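Dusp2, Dusp4, Dusp5, Dusp6, Spry1, Spry2 and Spred2 code for inhibitors that act on the Ras-ERK arm of MAP kinase signalling. They were taken as the 7 genes of this kind in the gene symbol column of the authors' tables of changed genes, each with 1 probe set, out of 2117 named and 28867 tested probe sets. Because a gene carries a name here only if the authors listed it as changed in at least 1 comparison of these same samples, the 7 were in part chosen on these data. Their levels were read on 21 Affymetrix Mouse Gene 1.0 ST arrays, each hybridised with total RNA of flow-sorted thymocytes that carry both CD4 and CD8, from C57 Bl/6 mice aged between 3 and 6 weeks.

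The 6 wild-type arrays came from untreated mice with no transgene. The other 5 groups had 3 arrays each. One was untreated mice with a knockout of HDAC7, a class IIa histone deacetylase that represses genes bound by MEF2 factors, and another was untreated mice with a transgene of HDAC7 fused to VP16, a viral activation domain. Another was untreated mice with the OT-2 transgene, a T cell receptor of fixed specificity. The peptide-injected group was OT-2 mice that received the agonist peptide of that receptor by intraperitoneal injection 3 hours before harvest. The last was OT-2 mice injected in the same way that also carried, per the titles, an HDAC7 deltaP transgene, a form known to lack the phosphorylation sites through which receptor signals move HDAC7 out of the nucleus. The genotype label of this group names the OT-2 transgene alone. The sources used here name neither the promoters that drive the transgenes nor the way HDAC7 was deleted. The design text calls the arrays biological replicates, and their number limits the precision of every value.

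When a T cell receptor is engaged, Ras activates a cascade of kinases that ends with ERK, and ERK activity switches on genes that shut it down again. The dual-specificity phosphatases (Dusp genes) remove phosphate from ERK and related kinases, DUSP2, DUSP4 and DUSP5 in the nucleus and DUSP6 in the cytoplasm. Sprouty and Spred proteins act further up, between the receptor and the Raf kinases. In thymocytes the strength and duration of ERK activity is known to bear on whether a cell is positively or negatively selected, and transcripts of these inhibitors are widely used as readouts of ERK activity.

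The promoters of Dusp5 and Dusp2, the members with the clearest response to peptide (below), are shown first, from 250 bases before to 50 after the gene's start, as RefSeq gives them on the GRCm38.p6 build. Dusp5 lies on the plus strand at chr19:53528895-53529194 and Dusp2 on the plus strand at chr2:127335909-127336208. Capitals mark matches to the CArG box, the element that serum response factor binds, and to TGACG, the core of the cyclic AMP response element, on either strand.
Dusp5: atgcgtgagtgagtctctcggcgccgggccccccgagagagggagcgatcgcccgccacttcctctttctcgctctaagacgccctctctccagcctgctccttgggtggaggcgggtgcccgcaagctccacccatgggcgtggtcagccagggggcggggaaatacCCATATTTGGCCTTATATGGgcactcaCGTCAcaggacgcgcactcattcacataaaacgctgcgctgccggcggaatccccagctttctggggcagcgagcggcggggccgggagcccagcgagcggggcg
Dusp2: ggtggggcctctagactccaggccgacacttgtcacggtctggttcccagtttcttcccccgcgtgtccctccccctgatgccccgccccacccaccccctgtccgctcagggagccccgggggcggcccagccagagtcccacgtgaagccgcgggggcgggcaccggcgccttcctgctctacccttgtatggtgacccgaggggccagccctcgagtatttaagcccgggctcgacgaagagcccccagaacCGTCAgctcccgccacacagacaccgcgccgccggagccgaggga

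Dusp5 held 2 CArG boxes end to end, CCATATTTGG at position -82 and CCTTATATGG at position -72, each counted from the gene's start to the first base of the box. Of the 6 member promoters that the RefSeq table holds, Dusp5 alone had a CArG box, against 1.63% of all 32851 promoters in it. TGACG or its complement occurred in Dusp2, Dusp5 and Spred2, against 20.8% of all promoters. The full cyclic AMP element TGACGTCA (1.79% of all promoters), the ETS site CCGGAAGT (3.89%), the AP-1 site TGAGTCA (5.2%), the EGR site GCGTGGGCG (0.612%) and the MEF2 box (3.19%) were looked for on both strands and not found in these 6 windows. Any TGACGTCA would also count as TGACG. A match is a description of letters, and its absence says nothing of what binds elsewhere.

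The deposited columns fall into 4 blocks that differ in decimals and distribution, and only comparisons within a block share a scale. Wild-type arrays 1 to 3, the knockout and peptide-injected OT-2 have 3 decimals. Wild-type arrays 4 to 6 and HDAC7-VP16 have 6, OT-2 has 6 with another distribution, and deltaP has 2. The step between blocks reached the members. Means of wild-type arrays 4 to 6 lay above those of arrays 1 to 3 by 0.77 log2 units for Dusp6, 0.65 for Dusp5 and 0.48 for Dusp2, and for Spry1 the same difference was -0.35. The arrays did not overlap for these 4 genes, and over all probe sets the 5th and 95th percentiles of this difference were -0.82 and 0.83. Differences across blocks therefore cannot be told apart from that step. Hdac7 itself read 10.94 to 10.98 in the knockout, against 11.01 to 11.48 for wild-type arrays 1 to 3 (-0.34 ± 0.14, adjusted p = 0.664). Where its probes lie against the deleted part is not known here, so this checks nothing and the loss of HDAC7 rests on the labels. In HDAC7-VP16 it rose (0.44 ± 0.07, adjusted p = 0.0352). Cd4 read at least 10.87 and Cd8b1 at least 12.15 on every array.

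**Figure D1:**
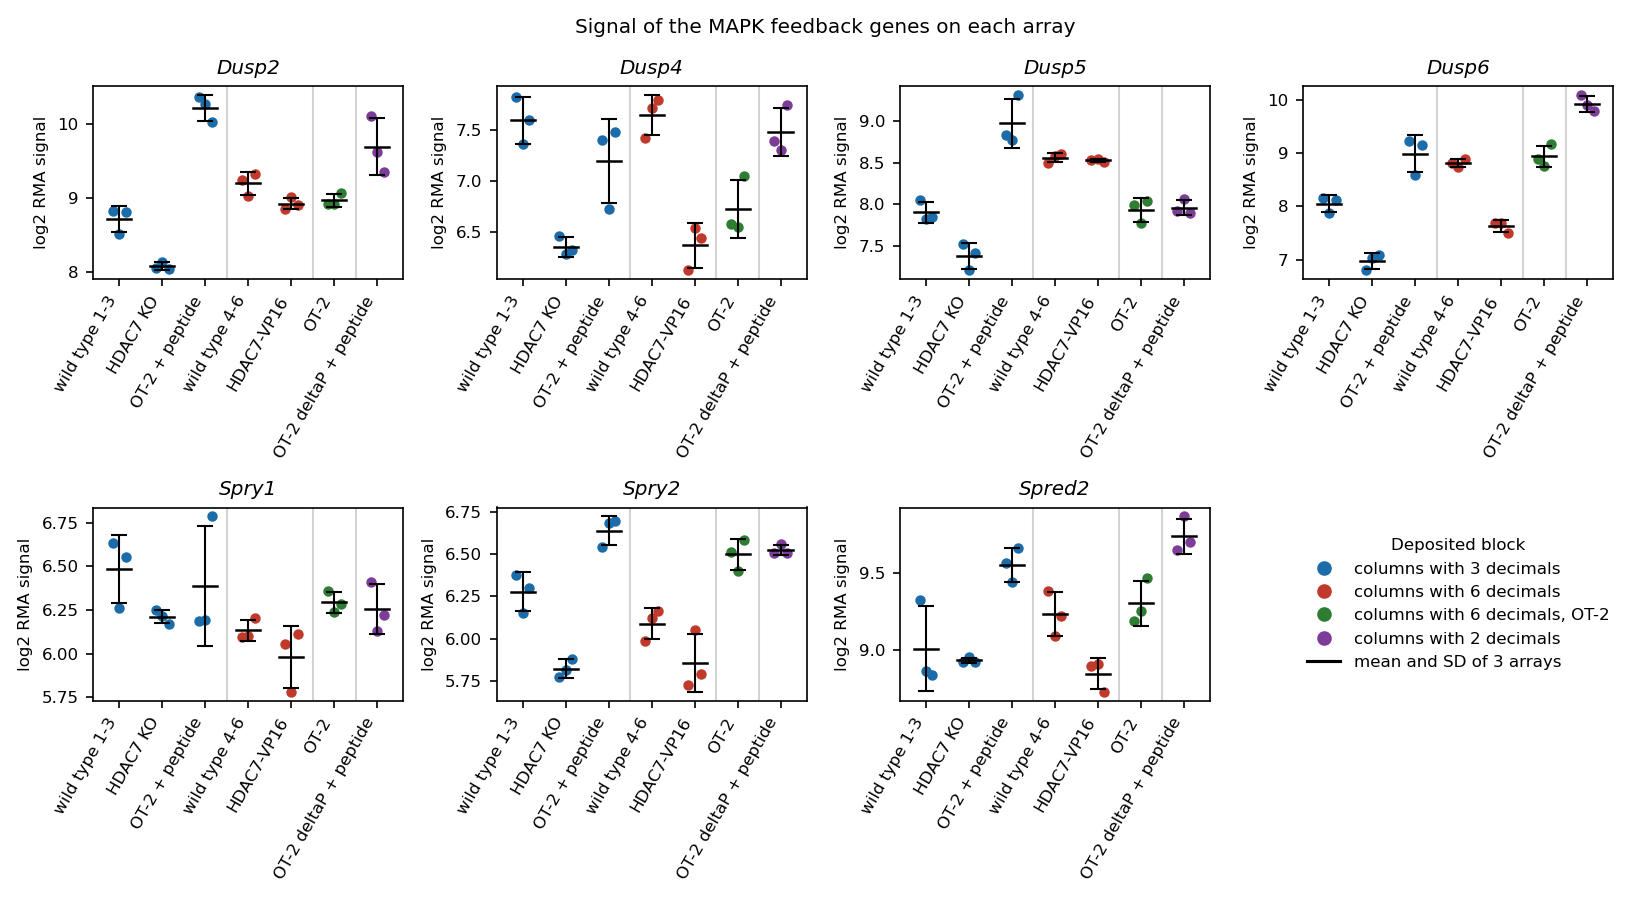
Log2 RMA signal of each of the 7 genes on each of the 21 arrays, by group. Points are arrays, bars the mean and SD of 3 arrays, and colours the deposited blocks, between which levels are not on a shared scale. Dusp4 and Dusp6 are low in the HDAC7 knockout and HDAC7-VP16, Dusp2 and Dusp5 are high in peptide-injected OT-2, and Dusp6 is highest with deltaP.

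The knockout comparison asks what loss of HDAC7 changes. Dusp4 fell 2.37-fold and Dusp6 2.12-fold, and the other 5 members did not pass the test (limma, Benjamini-Hochberg over all probe sets, adjusted p under 0.05). All 7 were lower, with a median change of -0.52 log2 units, against a median of -0.02 and 56% of probe sets lower over all genes. The 2 that fell compare with 0.364% of all probe sets. The authors chose 5 of the 7 as lower in this very comparison, so these counts are no independent evidence of direction. Nor is the count of members without overlap below.

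Dusp4 read 7.83, 7.36 and 7.60 in wild-type arrays 1 to 3 and 6.46, 6.28 and 6.32 in the knockout. Every knockout array lay below every wild-type array, at a change of -1.25 ± 0.14 (SE, adjusted p = 0.00585). Dusp6 read 8.17, 7.87 and 8.11 in wild type against 6.80, 7.02 and 7.09, again with no overlap, at a change of -1.08 ± 0.13 (adjusted p = 0.00775). These were the nuclear and the cytoplasmic ERK phosphatase with the largest changes, and both passed in all 6 fits that left out 1 array.

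Dusp2, a nuclear phosphatase gene induced on lymphocyte activation, read 8.82, 8.51 and 8.82 in wild type and 8.06, 8.14 and 8.04 in the knockout. The groups did not overlap, yet the change of -0.64 ± 0.12 did not pass (adjusted p = 0.0604). It passed after quantile normalisation (adjusted p = 0.0357). Dusp5 read 8.05, 7.82 and 7.85 against 7.52, 7.21 and 7.41, a change of -0.52 ± 0.12 (adjusted p = 0.165). Among the inhibitors upstream of Raf, Spry2 changed by -0.46 ± 0.11 (adjusted p = 0.157) and Spry1 by -0.27 ± 0.12 (adjusted p = 0.74), and Spred2 by -0.08 ± 0.14 (adjusted p = 0.993). Knockout arrays lay wholly below wild type for 6 members, all but Spred2, where 6.58% of all probe sets did so.

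The HDAC7-VP16 comparison, within the other block, asks what HDAC7 made into an activator changes. The same pair of genes fell as in the knockout, Dusp6 by 2.28-fold and Dusp4 by 2.44-fold, and 5 members did not pass. The count of 2 compares with 0.731% of all probe sets that fell. All 7 members were again lower, with a median of -0.27, against a median of 0.02 over all genes, of which 44.2% were lower. The authors chose Dusp4, Dusp6 and Spred2 as lower in this very comparison. These counts, and the count of members without overlap below, are therefore no independent evidence of direction.

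Dusp6 read 8.82, 8.74 and 8.89 in wild-type arrays 4 to 6 and 7.69, 7.69 and 7.50 in HDAC7-VP16. The groups lay more than 1 log2 unit apart at their nearest arrays, and the change was -1.19 ± 0.08 (adjusted p = 0.00129). With all 6 wild-type arrays as control, across both blocks, it was -0.81 and did not pass (adjusted p = 0.291). Dusp4 read 7.42, 7.72 and 7.80 against 6.12, 6.54 and 6.44, a change of -1.28 ± 0.13 (adjusted p = 0.00776). The Dusp4 call was lost without wild-type replicate 5 (adjusted p = 0.0599) and with the control rows of the array kept in (adjusted p = 0.0622).

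Spred2, which inhibits Raf activation at the membrane, read 9.38, 9.09 and 9.22 in wild type against 8.90, 8.91 and 8.73 in HDAC7-VP16. These did not overlap, at a change of -0.39 ± 0.09 that did not pass (adjusted p = 0.073). It passed with an intensity trend in the variance (adjusted p = 0.0303). Dusp2 changed by -0.27 ± 0.09 (adjusted p = 0.178), Spry2 by -0.23 ± 0.10 (adjusted p = 0.269) and Spry1 by -0.15 ± 0.10 (adjusted p = 0.475). Dusp5 was nearly level, from 8.50 to 8.61 in wild type and from 8.51 to 8.54 in HDAC7-VP16, with a change of -0.03 ± 0.06 and a 95% interval from -0.18 to 0.11. HDAC7-VP16 arrays lay wholly below wild type for 4 members, Dusp2, Dusp4, Dusp6 and Spred2, where 12.1% of all probe sets did.

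**Figure D2:**
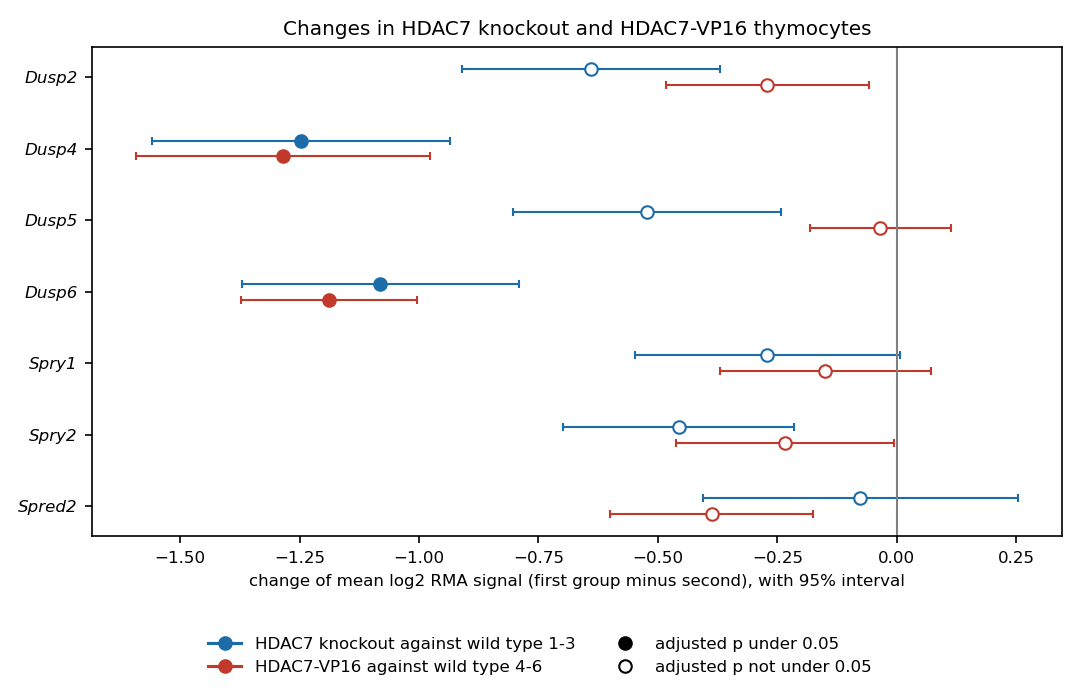
Change of mean log2 RMA signal of each gene in the HDAC7 knockout against wild-type arrays 1 to 3 and in HDAC7-VP16 against wild-type arrays 4 to 6, with the 95% interval of the limma fit (3 arrays a group). Filled points passed at an adjusted p under 0.05. Dusp4 and Dusp6 lie between -1.08 and -1.28 in both comparisons, and Dusp5 lies at -0.52 in the knockout and -0.03 in HDAC7-VP16.

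The difference between the HDAC7-VP16 and knockout effects was tested itself, each effect taken against its own wild-type arrays. None of the 7 members passed by limma, against 0.800% of all probe sets. The smallest unadjusted p among them were those of Dusp5 (0.0033) and Dusp2 (0.0295), which were not set against all probe sets. For Dusp4 the difference was -0.04 (95% interval -0.47 to 0.40) and for Dusp6 -0.11 (-0.43 to 0.22), and these intervals hold the differences that the arrays allow. For Dusp5 it was 0.49 ± 0.14 (adjusted p = 0.131). Replicate numbers may pair the knockout with wild-type arrays 1 to 3, though the titles name no pairing. With the number as a block Dusp5 passed (0.49, adjusted p = 0.0374), 1 member where 2.24% of all probe sets passed.

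Of 34 genes that ERK signalling is known to drive, 18 were measured, each of them a gene that the authors listed as changed in these samples. In the knockout 3 fell (0.364% of all probe sets did), 1 rose (0.443% did) and 14 did not pass, with a median of -0.23. Those that fell were Egr1 (-0.93), Nr4a1 (-0.83) and Egr2 (-1.12), immediate-early transcription factor genes, and Cd5, the gene of a receptor that dampens T cell receptor signals, rose (1.17). In HDAC7-VP16 3 fell, where 0.731% of all probe sets did, and 15 did not pass (median -0.15). These 3 were Egr1 (-0.87), Cd69 (-0.89), an early activation marker, and Nab2 (-0.46), a partner and repressor of EGR factors. The difference between the effects passed for Cd5 alone among the 18 (-1.34, adjusted p = 0.00452). Of 38 genes of the Ras-ERK cascade itself 7 were measured. Prkcq (0.69), a kinase gene upstream of Ras, rose in the knockout and Rasgrp2 (0.56) in HDAC7-VP16, and 6 of 7 did not pass in either. Dusp22, the 1 measured gene of 13 other phosphatase, Sprouty and Spred genes, rose in HDAC7-VP16 (0.56, adjusted p = 0.0184). None of the 5 measured of 23 genes listed under the other MAP kinase branches passed in either comparison.

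Markers of stage moved with these groups. The mean log2 signal of the 7 measured of 10 double-positive markers ran from 10.39 to 10.51 in the knockout against 10.78 to 11.00 in wild-type arrays 1 to 3. All 7 were lower in the knockout, of which Ptcra alone passed (-1.11). Ptcra was also the 1 of these 7 that was higher in OT-2 (1.01) and after peptide against wild-type arrays 1 to 3 (0.56). Itgam, the 1 measured of 7 myeloid markers, rose in the knockout (0.89). Cd79b, the 1 measured of 5 B cell markers, ran from 7.34 to 7.96 in the knockout and from 8.24 to 8.42 in those wild-type arrays. In HDAC7-VP16 the double-positive markers ran from 11.24 to 11.34 against 11.23 to 11.32 in wild-type arrays 4 to 6, and those of the earlier double-negative stage, 3 measured of 4, from 7.49 to 7.90 against 6.67 to 7.17. The lists of dendritic, NK and erythroid markers had no named probe set. In RNA of sorted cells, fewer cells that make a transcript and less of it per cell cannot be told apart, and the part of these markers in the members' changes was not tested.

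OT-2 thymocytes, which the design text uses for positive selection, were set against the 6 wild-type arrays, with block and group not to be told apart. Dusp4 fell 1.87-fold, the 1 member of 7 to pass, against 1.03% of all probe sets that fell. The authors chose Dusp4 and Spry1 as lower in this comparison, so the count is no independent evidence of direction. Dusp4 read 6.57, 6.55 and 7.05 in OT-2, below all wild-type arrays, which ran from 7.36 to 7.83 with a median of 7.66. The change was -0.90 ± 0.15 (adjusted p = 0.0191), with -0.87 against wild-type arrays 1 to 3 and -0.93 against arrays 4 to 6. The step between the OT-2 block and the others is not measured for any gene. The call was lost without OT-2 replicate 1 (adjusted p = 0.148) or 2 (adjusted p = 0.151). Stage markers moved in the same comparison. The 3 measured double-negative markers rose, Il2ra by 2.69, Dtx1 by 1.67 and Hes1 by 1.35, and 6 of the 7 double-positive markers were lower, of which Arpp21 fell (-0.61). Their part in the change of Dusp4 was not tested.

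For the other phosphatases the value depended on which wild-type arrays served as control. With a single wild-type set as control, calls were common over all probe sets, 27.0% with arrays 1 to 3 and 52.8% with arrays 4 to 6, and a member that passed there is read against those shares. Dusp6 was 0.51 ± 0.24 higher in OT-2 (adjusted p = 0.305), but 0.89 against arrays 1 to 3 (adjusted p = 0.0047) and 0.12 against arrays 4 to 6 (adjusted p = 0.355). Dusp5 changed by -0.30 ± 0.20 (adjusted p = 0.504), by 0.03 against arrays 1 to 3 (adjusted p = 0.859) and by -0.62 against arrays 4 to 6 (adjusted p = 9.63e-04). Spry2 was 0.32 ± 0.11 higher (adjusted p = 0.176), with OT-2 arrays from 6.40 to 6.59 and wild-type arrays from 5.98 to 6.38, and 0.41 higher against arrays 4 to 6 (adjusted p = 0.00375). Dusp2, Spry1 and Spred2 changed by 0.01, -0.01 and 0.18 with adjusted p from 0.59 to 0.983, and the sign for Dusp2 and Spry1 turned with the control used. Of the 18 ERK-driven transcripts Nr4a1 (-0.83) and Nr4a3 (-0.92) fell in OT-2, where 1.03% of all probe sets fell, and 16 did not pass.

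Peptide injection serves as negative selection in the authors' tables. Dusp2 rose 2.38-fold and Dusp5 2.05-fold over OT-2, 2 of 7 members where 9.36% of all probe sets rose, and 5 did not pass. The authors chose Dusp2 and Dusp5 as higher in this very comparison, so the count is no independent evidence of direction. Nor are the counts against wild-type arrays 1 to 3 below, which use the same peptide-injected arrays. Peptide against OT-2 sets 1 block against another. The peptide-injected arrays do share a block with wild-type arrays 1 to 3, and there Dusp2 rose 2.83-fold, Dusp5 2.09-fold and Dusp6 1.92-fold, 3 of 7 where 3.49% of all probe sets rose, although those mice differ in the transgene as well as the peptide and serve as controls of the knockout too. In that comparison the 3 measured double-negative markers rose (median 1.71), 5 of 7 double-positive markers fell and 1 rose (median -0.68), and the mature T cell marker Ccr7 rose (0.99). Their part in the members' changes was not tested.

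Dusp2 read 8.91, 8.92 and 9.07 in OT-2 and 10.36, 10.27 and 10.02 after peptide. The change was 1.25 ± 0.10 (adjusted p = 0.00451), and against wild-type arrays 1 to 3 it was 1.50 ± 0.13 (adjusted p = 0.00172). Dusp2 passed in each fit that left out 1 array in both comparisons. Dusp5 read 7.99, 7.78 and 8.04 in OT-2 and 8.82, 8.77 and 9.31 after peptide, with no overlap. The change was 1.03 ± 0.15 (adjusted p = 0.0104) against OT-2 and 1.06 ± 0.16 (adjusted p = 0.011) against wild-type arrays 1 to 3, the latter lost without wild-type replicate 3 (adjusted p = 0.0533).

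Dusp6 did not follow them. It read 8.88, 8.77 and 9.17 in OT-2 and 9.24, 8.59 and 9.16 after peptide, overlapping groups with a change of 0.06 ± 0.19 (adjusted p = 0.853, 95% interval -0.38 to 0.49). Against wild-type arrays 1 to 3 it was 0.94 ± 0.18 higher (adjusted p = 0.0234). That call held only without peptide replicate 2, among the 6 fits that left out 1 array, with adjusted p of 0.0931 and 0.0672 without peptide replicates 1 and 3, and of 0.0501, 0.063 and 0.078 without wild-type replicates 1, 2 and 3. Dusp4 read 7.40, 6.72 and 7.48 after peptide, 0.48 ± 0.22 above OT-2 (adjusted p = 0.165; 0.71 and adjusted p = 0.0469 without peptide replicate 2) and -0.40 ± 0.21 from wild type (adjusted p = 0.329).

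None of the inhibitors upstream of Raf passed. Spred2 read 9.57, 9.44 and 9.66 after peptide, 0.25 ± 0.10 above OT-2 (adjusted p = 0.112) and 0.55 ± 0.15 above wild-type arrays 1 to 3 (adjusted p = 0.0721). After quantile normalisation it passed in both (0.35, adjusted p = 0.0486, and 0.54, adjusted p = 0.0447), and against wild type it also passed without wild-type replicate 1 (0.71, adjusted p = 0.0289). Spry2 was 0.14 ± 0.08 above OT-2 (adjusted p = 0.249) and 0.36 ± 0.10 above wild type (adjusted p = 0.0852). Spry1 rested on 1 array, at 6.79 in peptide replicate 3 and 6.18 and 6.19 in the others, and did not pass (0.09 and -0.09, adjusted p = 0.701 and 0.825). Peptide-injected arrays lay wholly above wild-type arrays 1 to 3 for 5 members, all but Dusp4 and Spry1, where 14.5% of all probe sets did.

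**Figure D3:**
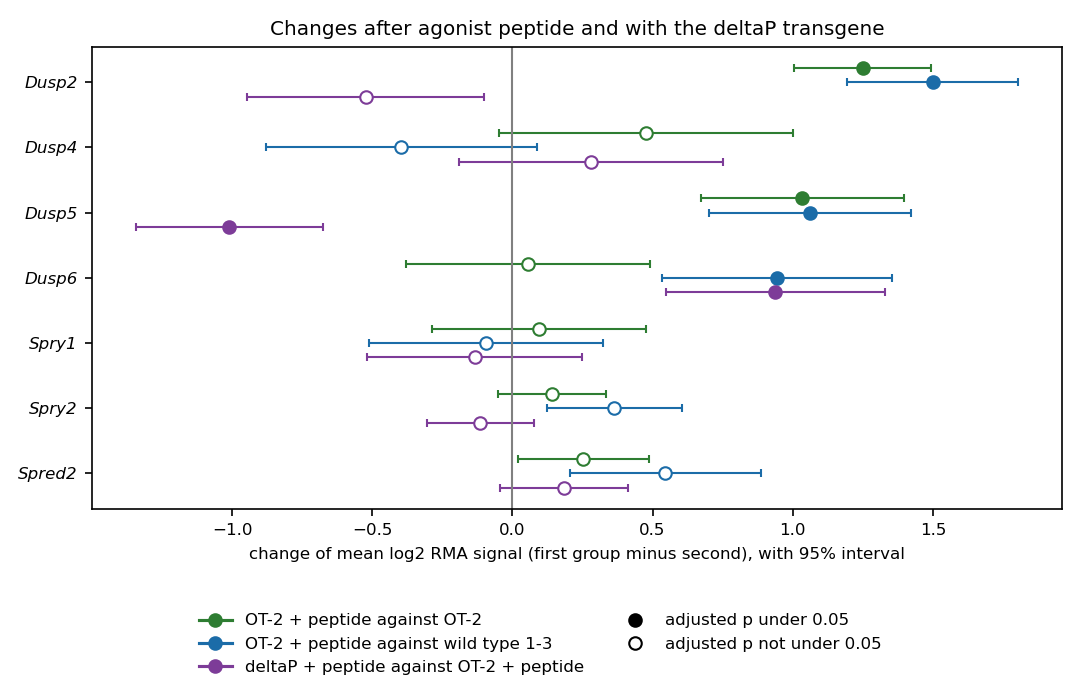
Change of mean log2 RMA signal of each gene for peptide-injected OT-2 against OT-2 and against wild-type arrays 1 to 3, and for deltaP against peptide-injected OT-2, with the 95% interval of the limma fit (3 arrays a group; the comparisons share the peptide-injected arrays). Filled points passed at an adjusted p under 0.05. Dusp5 lies at 1.03 after peptide and at -1.01 with deltaP, and Dusp6 lies at 0.06 and 0.94.

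The deltaP comparison, both groups injected with peptide, asks what the HDAC7 deltaP transgene changes, and again sets a block against another. Dusp5 fell 2.01-fold and Dusp6 rose 1.92-fold, and the other 5 did not pass. The authors chose Dusp2 and Dusp5 as higher in the peptide-injected arrays that serve as the control here. A fall of either is therefore no independent evidence of direction. Over all probe sets 12.9% fell and 2.12% rose, so a fall was common here. That split of 611 higher and 3733 lower turned to 3542 and 1019 with arrays centred on their medians, where Dusp5 (-0.82, adjusted p = 0.0196) and Dusp6 (1.13, adjusted p = 0.0149) passed in the same directions.

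Dusp5 read 7.92, 8.06 and 7.90 with deltaP against 8.82, 8.77 and 9.31 without it. The change was -1.01 ± 0.15 (adjusted p = 0.00849). The deltaP mean of 7.96 ± 0.09 (SD, n = 3) lay beside the OT-2 mean of 7.94 ± 0.14. These means come from different blocks without a shared scale, so no return to the OT-2 level can be read from them. Dusp6 read 10.10, 9.90 and 9.80 with deltaP, above all 18 other arrays of the series, all of other blocks, at a change of 0.94 ± 0.17 (adjusted p = 0.0149). The Dusp6 call was lost without deltaP replicate 2 (adjusted p = 0.0528). Its rise went the opposite way to the fall of Dusp5 in the same arrays.

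Dusp2 read 10.11, 9.62 and 9.35 with deltaP, the widest spread of any group for that gene, and its change of -0.52 ± 0.18 did not pass (adjusted p = 0.0866). Without deltaP replicate 1, the highest of the 3, it was -0.73 and passed (adjusted p = 0.0349). Dusp4 was 0.28 ± 0.21 higher (adjusted p = 0.361) and Spred2 0.18 ± 0.10 higher (adjusted p = 0.222). Spry1 (-0.13 ± 0.17, adjusted p = 0.596) and Spry2 (-0.11 ± 0.08, adjusted p = 0.364) turned sign after either rescaling.

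Of the 18 measured ERK-driven transcripts, 13 rose, 1 fell and 4 did not pass after peptide against OT-2. Over all probe sets 9.36% rose and 10.1% fell there. Nr4a1 (3.30) and Cd69 (2.57) had the smallest adjusted p, then Egr2 (1.47) and Nr4a3 (3.89) at the same adjusted p. Against wild-type arrays 1 to 3, 13 of the transcripts rose, where 3.49% of all probe sets did. With deltaP 12 fell and 6 did not pass, where 12.9% of all probe sets fell, and the median was -0.74 against -0.10 over all genes. The number that fell was 8 after quantile normalisation and 9 on median-centred arrays. All 18 were lower as deposited, where 65.3% of all probe sets were, and after quantile normalisation, and 15 were on median-centred arrays. The smallest adjusted p were those of Nr4a1 (-3.36), Etv5 (-1.45), an ETS factor gene, and Nr4a3 (-2.97). Since the genes are named only where the authors listed them, the counts are no independent evidence. The peptide and deltaP comparisons also share the peptide-injected arrays, with opposite sign. For any gene, a rise after peptide and a fall with deltaP are therefore coupled, and no reversal can be read from the pair. Of 23 genes listed under the other MAP kinase branches 5 were measured, and genes of this list, such as Map3k8, may act on ERK as well. Of these 5, 3 rose and 1 fell after peptide against OT-2 and 1 fell with deltaP. Of the 7 cascade genes Rasa2 (0.48), a Ras inhibitor, rose after peptide, Plcg1 (0.45) rose and Rasal1 (-0.42) fell with deltaP, and Dusp22 fell with deltaP (-0.65). Gadd45b, which activates the p38 and JNK branches, rose by 3.22 after peptide and fell by 2.39 with deltaP, and Map3k8 (1.02) and Mapk11 (1.02), a p38 kinase gene, rose after peptide, and Map2k6 (-0.34), the gene of a kinase that activates p38, fell. Double-negative markers ran from 8.04 to 8.52 after peptide, from 8.34 to 8.73 in OT-2 and from 7.17 to 7.89 with deltaP, and double-positive markers from 10.33 to 10.45, from 10.78 to 10.95 and from 10.51 to 10.81, and the part of these in the members' changes was not tested.

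Across the 7 sets of arrays, wild type counted as 2, the order of levels differed from gene to gene. Dusp4 and Dusp5 were lowest in the knockout, as were Dusp2, Dusp6 and Spry2, while Spry1 and Spred2 were lowest in HDAC7-VP16. For Dusp4 the knockout and HDAC7-VP16 overlapped at the bottom (6.35 ± 0.09 and 6.37 ± 0.22, SD, n = 3), and each neighbour from OT-2 up to the wild-type sets overlapped the next. For Dusp6 the knockout, HDAC7-VP16, wild-type arrays 1 to 3 and arrays 4 to 6 followed each other with no overlap, OT-2 and peptide-injected OT-2 overlapped with arrays 4 to 6 and with each other, and deltaP stood apart (9.93 ± 0.15). For Dusp2 peptide-injected OT-2 (10.22 ± 0.17) and deltaP (9.69 ± 0.39) overlapped at the top. For Spry1 every neighbour in the order overlapped the next, and for Spry2 the 4 lowest sets stood below OT-2, deltaP and peptide-injected OT-2 with no overlap at that step alone. For Spred2 the step from HDAC7-VP16 to the knockout was the 1 without overlap. Levels of different blocks are set side by side here and are not on a shared scale.

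The named genes with the most similar pattern were found by the root-mean-square difference of log2 values over the 15 arrays of the knockout, peptide, HDAC7-VP16 and both wild-type sets, each array taken minus the wild-type mean of its block. Dusp6 was nearest to Egr1 (0.24 log2 units, where the median named gene lay at 0.92), then Pdcd1 (0.39) and Id2 (0.39). Egr1 changed by -0.93 in the knockout, 0.78 after peptide against wild type and -0.87 in HDAC7-VP16. Dusp2 was nearest to Bcl2l11 (0.16, median 0.86), which codes for the death-promoting protein BIM, then Ier2 (0.18) and Tmem176b (0.21). Dusp5 was nearest to Itga9 (0.18, median 0.68), an integrin gene, Tgif1 (0.19) and Tnfaip3 (0.19), a brake of NF-kB. Dusp4 had no close neighbour, the nearest being Akap12 (0.42, median 0.85), Fgf13 (0.45) and Ikzf3 (0.47). The remaining members varied little from wild type, so that flat genes come out as near. Their nearest were Ubash3a (0.11), Prf1 (0.12) and B3gnt2 (0.14) for Spry2, Nme1 (0.12), Mphosph6 (0.14) and Adk (0.14) for Spred2, and Cenpt (0.15), Fdps (0.16) and Tagap1 (0.16) for Spry1.

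**Figure D4:**
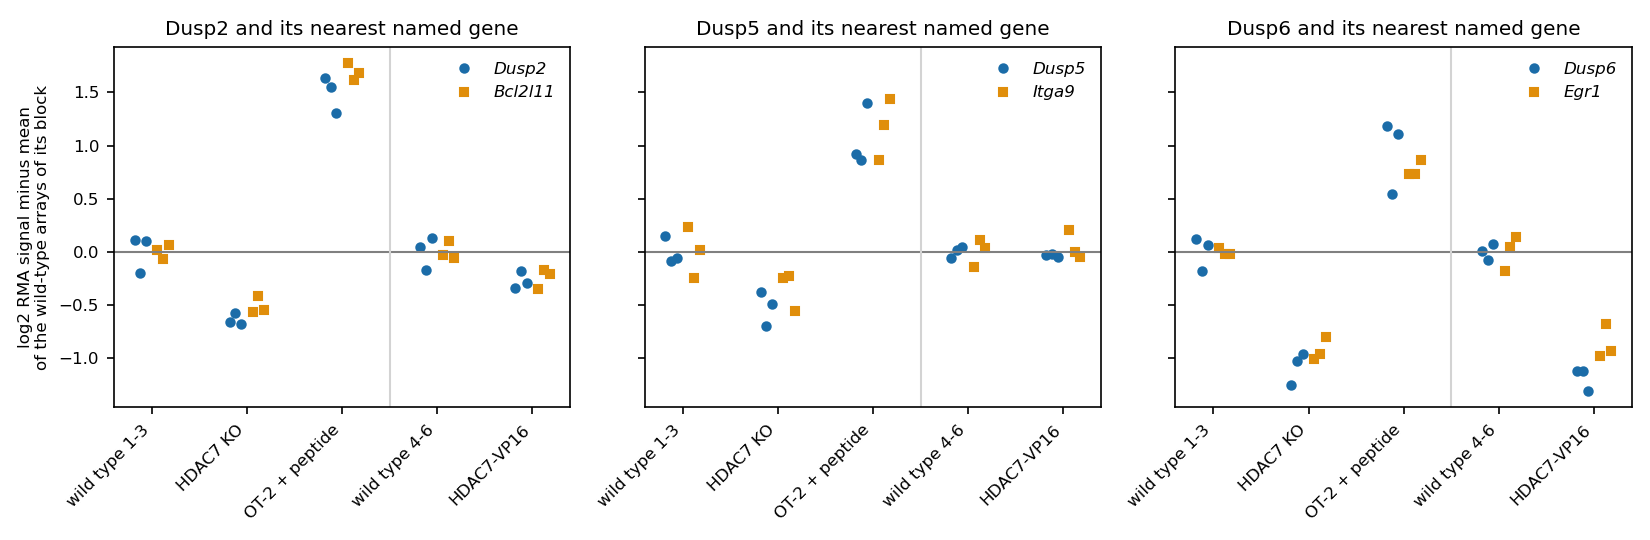
Log2 RMA signal minus the mean of the wild-type arrays of the same block, on the 15 arrays of 2 blocks, for Dusp2, Dusp5 and Dusp6 and the named gene nearest to each. Points are arrays. Dusp6 and Egr1 lie below 0 in both the knockout and HDAC7-VP16 and above 0 in peptide-injected OT-2, while Dusp5 and Itga9 lie near 0 in HDAC7-VP16.

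In the authors' deposited tables, which rest on the SAM package, Dusp2, Dusp4, Dusp5, Dusp6 and Spry2 stand among the genes lower in the knockout, with folds of 0.642, 0.421, 0.696, 0.473 and 0.729. Their q values there are 1.92% for Dusp2, 10.7% for Dusp5, 7.92% for Spry2 and 0% for Dusp4 and Dusp6. The authors' deposited table for HDAC7-VP16 lists Dusp6 (0.439), Dusp4 (0.411) and Spred2 (0.764, q value 2.81%) as lower. For OT-2 the authors' deposited table has Dusp4 (0.503) and Spry1 (0.762) as lower, and for peptide it has Dusp2 (2.44) and Dusp5 (2.17) as higher.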

How the data were processed

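Total RNA of flow-sorted thymocytes was hybridised to 1 Affymetrix Mouse Gene 1.0 ST array a sample, 21 in all. The authors deposited log2 signals made with RMA, per the submitters' processing notes, which for the deltaP arrays also name Affymetrix Expression Console. Arrays were normalised in groups that follow the comparisons, per the series design text. The authors' deposited tables give a fold change as a ratio, a SAM score and a q value in percent, per the file headers and the readme. The sources used here give no versions of these tools.

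Of 35556 rows, 6666 numbered below the first probe set of the authors' tables were left out as control rows and 23 further probe sets of genes already represented were not used, which left 28867. Genes were named through the authors' tables and RefSeq (1926 rows by accession, 116 by symbol, 61 by synonym, 37 as in the file). The 7 genes and the gene lists were chosen with earlier results of these data known. Named genes are the 7, Hdac7, list members that passed in the knockout or HDAC7-VP16, up to 3 in each other comparison, and the 3 nearest in pattern; others named were chosen after their values were seen. The result of 1 marker gene is not reported here. Groups came from the titles; the sample numbers that the design text gives for OT-2 do not match them. Each comparison was fitted across all probe sets on its own arrays with limma 3.58.1 (lmFit, eBayes) in R 4.3.3, with Benjamini-Hochberg adjustment and a threshold of 0.05, and the fit was tested on simulated data. Same-numbered knockout and wild-type arrays deviated together (r = 0.424, 0.261 and 0.25 for the 3 pairs), so those numbers may pair arrays, though the titles name no pairing. In both peptide comparisons and with deltaP at least 1 pair was below 0.1. Pairing was not examined for HDAC7-VP16 or for OT-2 against wild type. Alternatives were quantile normalisation, median centring, all rows, leaving out the dimmest 25% of probe sets, an intensity trend, the replicate block, other wild-type controls and each array left out. Counts over the gene lists under both scalings were added after seeing the data. Tables and figures used python 3.11.15, numpy 2.4.6, pandas 2.3.3 and matplotlib 3.10.9.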

Additional observations from a re-analysis of the deposited data

How the results depend on the processing

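Of 665 values of single members under an alternative, 605 kept their direction and side of the threshold, 13 lost a call, 16 gained one and 31 changed sign. None of those 31 passed in either fit. In the knockout Dusp4 and Dusp6 passed in every alternative, and Dusp2 joined them in 3 (adjusted p from 0.0357 to 0.039). In HDAC7-VP16 the count of members that passed, 2 in the main fit, was 3 with an intensity trend and 1 with all rows of the value table. It was 1 with all 6 wild-type arrays as control (Dusp6 -0.81, adjusted p = 0.291) and from 1 to 2 with 1 array left out. For the difference of the effects it was 1 with the replicate block. In OT-2 it was 2 and 3 against wild-type arrays 1 to 3 and 4 to 6, where 27.0% and 52.8% of all probe sets changed, and from 0 to 1 with 1 array left out, and so it rests on the control. With 1 array left out it ran from 2 to 3 for peptide against OT-2, from 1 to 3 for peptide against wild type and from 1 to 3 for deltaP. The replicate block changed 1 other call, Dusp2 with deltaP (-0.52, adjusted p = 0.0417), where same-numbered arrays did not all deviate together.

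Sign changes under other scalings were Dusp4 (0.19) and Dusp6 (0.049) in the difference of effects and Spry1 (0.054) and Spry2 (0.045) with deltaP after quantile normalisation, and Dusp2 in OT-2 (-0.054), Dusp6 after peptide (-0.0054) and Spry1 (0.058) and Spry2 (0.078) with deltaP on median-centred arrays. With other wild-type controls they were Dusp5 in HDAC7-VP16 (0.29) and Dusp5 (0.030), Dusp2 (-0.23) and Spry1 (0.16) in OT-2. With 1 array left out, ranges that cross 0 were -0.16 to 0.083 for Spred2 in the knockout, -0.15 to 0.086 for Dusp4 in the difference of effects, -0.078 to 0.084 for Dusp2 and -0.056 to 0.051 for Spry1 in OT-2, -0.066 to 0.26 for Dusp6 and -0.10 to 0.20 for Spry1 after peptide against OT-2, -0.29 to 0.0073 for Spry1 against wild type, and -0.24 to 0.065 for Spry1 with deltaP. The cause was not tested. No member had another probe set, so that alternative gave no value.

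Counts over all probe sets ranged more widely: 233 in the knockout (107 to 302 in the alternatives), 411 in HDAC7-VP16 (32 to 1632), 231 for the difference of effects (93 to 648), 667 in OT-2 (51 to 15231), 5620 and 1665 after peptide against OT-2 (744 to 6789) and wild type (429 to 2226), and 4344 with deltaP (845 to 4561). On median-centred arrays the split of higher and lower moved from 200 and 211 to 186 and 413 in HDAC7-VP16, from 137 and 94 to 105 and 125 for the difference, from 369 and 298 to 278 and 482 in OT-2, and from 2702 and 2918 to 2048 and 4741 after peptide against OT-2.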

Other observations

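For Spry1 and Spry2 the authors' deposited table and the deposited columns part ways in OT-2 against wild type. The authors' deposited table gives Spry1 a fold of 0.762 with a q value of 0.502%, whereas the columns give a ratio of 0.99 and an adjusted p of 0.973. It gives Spry2 a fold of 0.929, whereas the columns give a ratio of 1.25 (adjusted p = 0.176). For Dusp4 the corresponding values were 0.503 and 0.536. In the knockout and HDAC7-VP16, where each comparison lies in 1 block, the fold of every member equalled the ratio from the columns to 3 digits or nearly so, for example 0.421 and 0.421 for Dusp4 in the knockout. For peptide against OT-2, which also crosses blocks, the authors' fold lay above the column ratio for every member. Examples were 1.34 and 1.07 for Spry1 and 2.44 and 2.38 for Dusp2. Why the columns differ from the authors' values in OT-2 and after peptide was not tested.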
